A study of Homo sapiens with 6 samples.

Results

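The transcripts of 9 enzymes that make serine and carry its one-carbon unit on folate were followed in SCC25 cells under hypoxia and normoxia. The members were taken by name as PHGDH, PSAT1, PSPH, SHMT1, SHMT2, MTHFD1, MTHFD2, MTHFD1L and ALDH1L2, and the rule that picks them uses no measured value. Their choice was nevertheless made with earlier results of these data known. All 9 were among the 21776 genes of the count table, and all 9 were among the 14255 genes that passed the filter on low counts. SCC25 is an established cell line derived from human oral squamous cell carcinoma, and its genotype is labelled as wild type. The cells were grown in DMEM/F12 medium with 10% fetal bovine serum. The hypoxia group, with 3 libraries, was kept for 12 h in a tri-gas incubator at 1% O2, and the normoxia group, also with 3 libraries, was kept in air, both with CO2 added. Total RNA was sequenced after mRNA library preparation. The labels do not say whether the 3 libraries of a condition came from separate cultures, so p-values measure the spread between these libraries, which may be technical. The legend that describes this sequencing names another oral carcinoma line, SCC9, whereas every sample label names SCC25.

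Serine is made from 3-phosphoglycerate, an intermediate of glycolysis, by PHGDH, PSAT1 and PSPH acting in that order. The serine hydroxymethyltransferases then split serine into glycine and a one-carbon unit bound to tetrahydrofolate, SHMT1 in the cytosol and SHMT2 in mitochondria. Inside mitochondria MTHFD2 oxidises the unit, MTHFD1L releases it as formate, and ALDH1L2 can instead oxidise it to carbon dioxide. MTHFD1 rebuilds the unit in the cytosol for purines, thymidylate and methionine. Many carcinoma cells raise these enzymes, and the pathway is known as a source of nucleotides, of methyl groups and of NADPH. Per the annotation deposited with the counts, 7 of the 9 enzymes carry the term cytosol, 5 mitochondrion and 4 mitochondrial matrix, and an enzyme can carry more than one.

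Summed over all genes, the hypoxia libraries held 30186813, 36076088 and 32272716 counts (replicates 1, 2 and 3, the order used throughout), and the normoxia libraries held 37278703, 29637189 and 29981208. The counts of an enzyme are given below as CPM, counts divided by a library size that TMM had adjusted, and as mean ± SD over the 3 libraries of a condition. A log2-fold change is that of hypoxia over normoxia from edgeR's quasi-likelihood test, with its standard error (SE), and a gene was called at an adjusted p-value under 0.05. Of the 9 squamous epithelial markers examined, 8 were expressed, and EPCAM was the most abundant per length. KRT5 had 105 to 115 CPM under hypoxia and 119 to 137 CPM under normoxia, whereas KRT14 had 0 counts in 5 libraries and 1 count in the other. Among the 8 markers tested, 3 were higher and 4 lower under hypoxia: CDH1 rose by 1.35, DSG3 by 1.35 and KRT17 by 1.06, and KRT6A fell by 4.12, SFN by 0.80, EPCAM by 0.35 and KRT5 by 0.18. Of the 6 leukocyte markers, 4 had at most 10 counts in every library, PTPRC and CD3E among them, and their summed level of 33.0 to 39.6 CPM came mostly from CD68. CD14 was called higher, at 5.83 ± 0.445 CPM (SD, n = 3) under hypoxia and 1.07 ± 0.481 CPM under normoxia. The 5 endothelial markers summed to 1.26 to 1.67 CPM under hypoxia and 0.296 to 0.744 CPM under normoxia, and CDH5, the only one above 10 counts, reached the filter level in every library of hypoxia alone. The 7 fibroblast markers summed to 17.3 to 22.1 CPM under hypoxia and 3.18 to 5.64 CPM under normoxia, nearly all of it from COL1A1, with 18.0 ± 2.02 CPM (SD, n = 3) and 3.76 ± 1.17 CPM, while 4 of the 7 had at most 10 counts in every library. The part of these marker shifts in the results for the enzymes was not tested.

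Under hypoxia the enzymes did not all move one way. PSAT1, MTHFD1, MTHFD2 and MTHFD1L fell, PHGDH rose, and PSPH, SHMT1 and SHMT2 changed by 0.16 to 0.20 in size on the log2 scale. The scarce ALDH1L2 had more counts in each hypoxia library, but its being tested depended on them, so its call is no support for a change. In all, 9 of 9 were called, 3 higher and 6 lower, where 77.8% of all genes tested were called, 39.2% higher and 38.5% lower. The libraries of the 2 conditions did not overlap for any of the 9, and the same held for 80.5% of all genes tested. Of the 9, 4 were called with a log2-fold change beyond 1 in size, beside 30.4% of all genes. ALDH1L2 entered these counts through its hypoxia libraries alone, and the other 8 enzymes, 2 higher and 6 lower, reached the filter level, the equivalent of 10 counts at the median library total, in every library of both conditions. Over all genes tested, 1272 reached that level in every hypoxia library but not in every normoxia library, and 1098 of them were among the 5595 called higher. The median log2-fold change was -0.20 over the enzymes and 0.02 over all genes tested. Where every library had to hold 10 counts or more, ALDH1L2 was not tested and the median of the other 8 enzymes was -0.34. That median is lower because ALDH1L2 dropped out. The setting itself moved log2-fold changes upward, by a median of 0.077 over the genes tested. The spread between replicates was small, with a biological coefficient of variation of 0.0685, and most genes of the table were called. In bulk RNA, less transcript per cell and fewer cells with the transcript cannot be told apart.

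**Figure D1:**
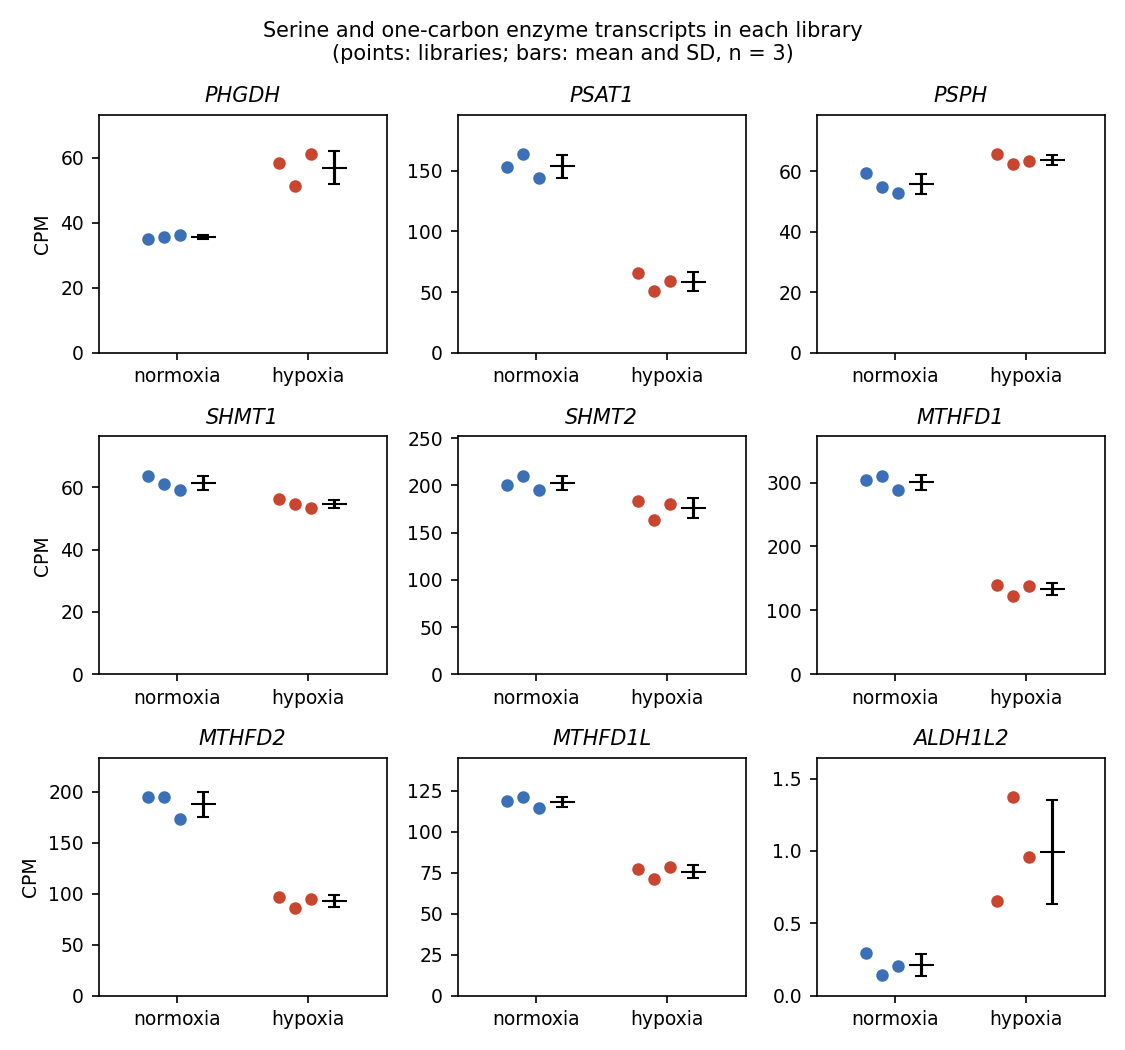
Level of each of the 9 enzymes in CPM (linear axes from 0, one scale per panel) in the 3 normoxia and 3 hypoxia libraries, with bars for the mean and SD. No panel has overlapping conditions, and PSAT1, MTHFD1 and MTHFD2 show the widest gaps downward among the abundant enzymes.

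Within the serine synthesis branch, the first and the second enzyme moved in opposite directions. PHGDH (Entrez 26227), the dehydrogenase that commits 3-phosphoglycerate to serine, had 58.5, 51.2 and 61.1 CPM under hypoxia and 35.0, 35.5 and 36.2 CPM under normoxia. Every hypoxia library lay above every normoxia library, and the normoxia libraries were nearly level with each other. PHGDH rose 1.60-fold, a log2-fold change of 0.68 (SE 0.070, edgeR adjusted p = 9.66e-08). PSAT1 (Entrez 29968), the aminotransferase of the next step, had 65.9, 50.5 and 59.6 CPM under hypoxia and 153, 163 and 144 CPM under normoxia. All hypoxia libraries were far below all normoxia libraries. PSAT1 fell by 1.39 on the log2 scale (SE 0.079, edgeR adjusted p = 3.66e-11), and its mean was 2.62-fold higher under normoxia. Only 4.45% of the genes tested had a lower log2-fold change.

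PSPH (Entrez 5723), the phosphatase that releases serine, had 65.6, 62.6 and 63.3 CPM under hypoxia and 59.5, 55.0 and 52.9 CPM under normoxia. The conditions came close to each other without overlapping. PSPH rose 1.14-fold, a log2-fold change of 0.19 (SE 0.061, edgeR adjusted p = 0.0078). The ratio of PHGDH to PSAT1 within a library, examined after the values had been seen and therefore not tested, averaged 0.232 under normoxia and 0.974 under hypoxia on the CPM scale, a difference of 2.07 on the log2 scale. The same ratio for PSPH over PSAT1 went from 0.363 to 1.09. CPM are not corrected for gene length, so only the change of such a ratio between conditions is read here, and in both cases every hypoxia library was above every normoxia library.

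Both serine hydroxymethyltransferases were slightly lower. SHMT1 (Entrez 6470), the cytosolic form, had 56.1, 54.7 and 53.5 CPM under hypoxia and 63.6, 60.9 and 59.2 CPM under normoxia. SHMT2 (Entrez 6472), the mitochondrial form, had 184, 164 and 181 CPM under hypoxia and 201, 210 and 195 CPM under normoxia. For both, the lowest normoxia library stayed just above the highest hypoxia library. The log2-fold change was -0.16 for SHMT1 (SE 0.058, edgeR adjusted p = 0.016) and -0.20 for SHMT2 (SE 0.056, edgeR adjusted p = 0.0039). These calls depended on the filter through the scaling between libraries, since both enzymes had far more than 10 counts in every library. Where every library had to hold 10 counts or more, log2-fold changes over all genes tested shifted upward by a median of 0.077. Those of SHMT1 and SHMT2 were then -0.09 and -0.12, and their edgeR adjusted p 0.173 and 0.0514. Without hypoxia replicate 3 and without normoxia replicate 1, SHMT1 had an edgeR adjusted p of 0.0594 and 0.0638, and limma on the FPKM gave 0.068.

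The cytosolic MTHFD1 (Entrez 4522), a protein with 3 folate activities that activates formate and feeds the nucleotide pathways, had 139, 122 and 139 CPM under hypoxia and 304, 310 and 288 CPM under normoxia. Hypoxia libraries had less than the lowest normoxia library by a wide margin. MTHFD1 fell by 1.18 on the log2 scale (SE 0.060, edgeR adjusted p = 9.76e-12), with a mean 2.26-fold higher under normoxia, and had the smallest p of the 9. MTHFD2 (Entrez 10797), the mitochondrial dehydrogenase and cyclohydrolase, had 96.9, 86.2 and 94.9 CPM under hypoxia and 195, 195 and 174 CPM under normoxia. Here too the groups were well apart, and replicate 3 was the lowest of the normoxia libraries. MTHFD2 fell by 1.02 (SE 0.062, edgeR adjusted p = 9.36e-11), a 2.03-fold higher mean under normoxia. MTHFD2L, its related enzyme of mitochondria, was much scarcer, at 6.07 ± 0.553 CPM (SD, n = 3) under hypoxia and 8.86 ± 0.618 CPM under normoxia, and fell by 0.55 (SE 0.13). The difference between the 2 declines was not tested.

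MTHFD1L (Entrez 25902), which releases formate from mitochondria, had 77.6, 71.1 and 78.3 CPM under hypoxia and 119, 121 and 115 CPM under normoxia. The 3 libraries of each condition lay close together and apart from the other 3. MTHFD1L fell by 0.64 (SE 0.056), less than MTHFD1 and MTHFD2. ALDH1L2 (Entrez 160428), the mitochondrial 10-formyltetrahydrofolate dehydrogenase, was barely expressed, with 20, 51 and 31 counts under hypoxia and 11, 4 and 6 counts under normoxia. The hypoxia libraries were all higher, and they spread widely among themselves. Its log2-fold change of 2.18 (SE 0.46, edgeR adjusted p = 3.6e-04) rests on these few counts. It passed the filter on low counts through the hypoxia libraries alone, so being tested already depended on its being higher there, and the call is no support for a change. ALDH1L1, its cytosolic counterpart, had at most 2 counts in any library and was not tested, so the ratio of the pair could not be formed.

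Ratios within a library compare the compartments without any scaling between libraries. SHMT2 over SHMT1 averaged 3.21 under hypoxia and 3.30 under normoxia on the CPM scale, a log2 difference of -0.04 (exact permutation p = 0.6, two-sided, n = 3 per condition). The libraries of the 2 conditions overlapped for this ratio, and its log2 difference ran from -0.075 to 0.012 with a library left out. MTHFD1L over MTHFD1 was 0.569 under hypoxia and 0.393 under normoxia, a log2 difference of 0.53, and MTHFD2 over MTHFD1 was 0.697 and 0.624, a log2 difference of 0.16. For both, every hypoxia library was above every normoxia library, which gives an exact permutation p of 0.1, the smallest that 3 against 3 libraries allow. MTHFD2 over SHMT2, examined after the values had been seen and not tested, went from 0.928 to 0.527.

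Levels of different enzymes were set side by side per length, as FPKM (counts per kilobase of gene length in proportion to the library total). Under normoxia MTHFD1 led with 93.7 ± 3.30 FPKM (SD, n = 3), followed by SHMT2 with 74.3 ± 1.97, PSAT1 with 68.5 ± 3.56, MTHFD2 with 41.7 ± 2.67, SHMT1 with 22.4 ± 1.05, PSPH with 16.3 ± 1.17, MTHFD1L with 8.74 ± 0.205 and PHGDH with 4.57 ± 0.0946 FPKM. ALDH1L2 was last at 0.0256 ± 0.00981 FPKM, and no neighbours in this order had overlapping libraries. Under hypoxia SHMT2 came first with 66.8 ± 3.27 FPKM, ahead of MTHFD1 with 42.9 ± 2.61 and PSAT1 with 27.0 ± 3.29. MTHFD2 with 21.3 ± 1.06 and SHMT1 with 20.7 ± 0.603 FPKM overlapped, and PSPH with 19.3 ± 0.411, PHGDH with 7.56 ± 0.580, MTHFD1L with 5.78 ± 0.230 and ALDH1L2 with 0.123 ± 0.0461 FPKM followed without overlap. The leading place thus passed from MTHFD1 to SHMT2, and PHGDH moved ahead of MTHFD1L.

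**Figure D2:**
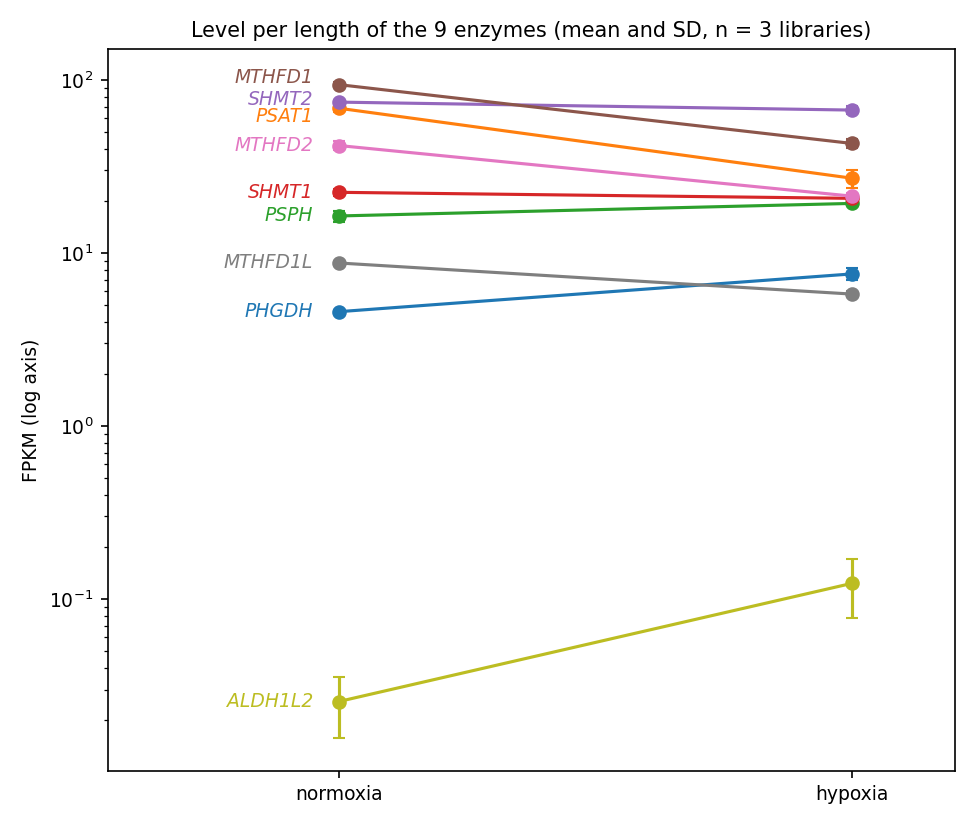
Mean level per length of each enzyme under normoxia and hypoxia in FPKM on a log axis, with the SD of 3 libraries as bars. The lines of MTHFD1 and SHMT2 cross, as do those of PHGDH and MTHFD1L, and ALDH1L2 lies far below the rest.

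The order per length depends on the length behind the FPKM. The deposited values imply 7645 bases for PHGDH and 13295 for MTHFD1L, whereas the longest principal transcripts in GENCODE v29 have 2585 and 3604 bases. With those transcript lengths, a choice made after the values had been seen, MTHFD1 and SHMT2 kept places 1 and 2 under normoxia and places 2 and 1 under hypoxia, and ALDH1L2 stayed last. The middle of the order changed: MTHFD1L came to place 5 under normoxia, and under hypoxia PSPH came to place 3 and MTHFD2 to place 8, with levels of 21.1 to 29.8 for all places from 3 to 8. Under hypoxia PHGDH, at 22.4 ± 1.72 (SD, n = 3), and MTHFD1L, at 21.3 ± 0.848, were then no longer clearly apart. The changes between conditions within 1 enzyme do not depend on its length. Summed over the 9 enzymes, the deposited FPKM came to 211 ± 10.9 (SD, n = 3) under hypoxia and 330.3 ± 12.7 under normoxia. PSAT1 made up 12.7 ± 0.916% of the sum under hypoxia and 20.7 ± 0.487% under normoxia, MTHFD1 20.3 ± 0.354% and 28.4 ± 0.102%, and SHMT2 31.6 ± 0.167% and 22.5 ± 0.370%. These shares rest on the deposited lengths, and that of SHMT2 was larger under hypoxia although its own level was lower there.

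Promoter sequence was available for 6 of the 9 enzymes in RefSeq windows of GRCh38.p14 that run from 250 bases before to 50 bases after a start. Of the motifs searched on both strands, CCAAT, the box bound by NF-Y, was present in 6 of the 6 and in 34.6% of all 35116 windows of this length. CACGTG, the canonical E-box, was present for MTHFD1 and MTHFD1L and in 7.26% of all windows. ACGTG and GCGTG, cores of the hypoxia response element, were each present for 3 of the 6, beside 21.4% and 36.5% of all windows, and an ACGTG lies inside each CACGTG. TGATGNAA, the pattern of C/EBP-ATF response elements, was present for MTHFD1L alone, beside 3.62%. MTHFD1L has 4 annotated starts, and its matches count all their windows. A match is a string of letters and shows no binding. Stretches for 4 of the enzymes are given below as examples for the plus strand, 5′ to 3′, with the motif in capitals, PSAT1 and PHGDH for the CCAAT boxes of the first steps of serine synthesis, MTHFD1 and MTHFD1L for the E-box, and MTHFD1L again for TGATGNAA.
PSAT1, chr9:78297005-78297084: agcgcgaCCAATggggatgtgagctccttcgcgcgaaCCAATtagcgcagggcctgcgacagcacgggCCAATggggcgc
PHGDH, chr1:119711850-119711879: tgagtatttccgtCCAATcaaaaggagact
MTHFD1, chr14:64388323-64388352: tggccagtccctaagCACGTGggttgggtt
MTHFD1L, chr6:150866320-150866349: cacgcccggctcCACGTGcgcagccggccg
MTHFD1L, chr6:150866346-150866375: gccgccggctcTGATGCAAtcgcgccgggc
The stretch of PSAT1 holds 3 CCAAT boxes within 80 bases, and that of PHGDH holds 1. The number of boxes was not compared with the direction of change.

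The other genes of the folate cycle mostly fell. Of 15 tested, 11 were lower, 3 higher and 1 not called, with a median log2-fold change of -0.91. The 3 largest declines were those of SLC19A1, SFXN2 and SLC25A32. SLC19A1, the reduced folate carrier of the cell surface, went from 64.4 ± 5.42 CPM (SD, n = 3) under normoxia to 14.2 ± 0.240 CPM, a log2-fold change of -2.18 (SE 0.076), and SLC25A32, the mitochondrial folate carrier, from 74.3 ± 11.1 to 20.5 ± 1.5 CPM (-1.86, SE 0.095). SFXN2, of the sideroflexin family of mitochondrial carriers, fell by 1.87 (SE 0.18). Of the other carriers and receptors of folate, SLC46A1 fell by 1.01 (SE 0.078), and FOLR1, with 2 to 5 counts per normoxia library, was called higher; both were named after their values were seen. FOLR1 and FTCD, 2 of the 3 genes called higher, passed the filter on low counts through the hypoxia libraries alone. Thymidylate synthase (TYMS), a user of the one-carbon unit, fell by 1.09 (SE 0.067) and was named for its place in the cycle after its values were seen. SFXN3, also a sideroflexin, went the other way, from 54.5 ± 2.62 to 99.7 ± 1.66 CPM (0.87, SE 0.056).

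**Figure D3:**
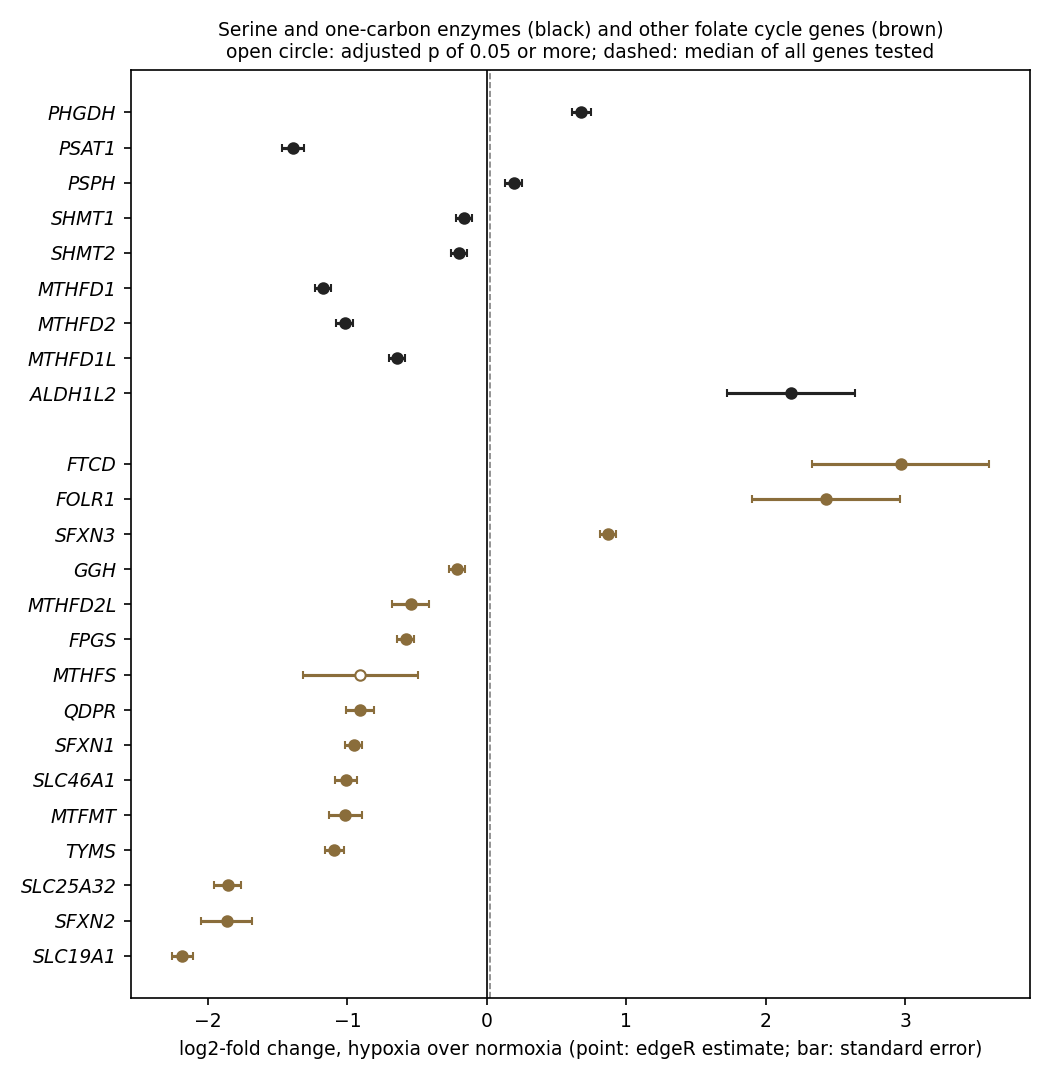
Log2-fold change of hypoxia over normoxia from edgeR, with its standard error, for the 9 enzymes (black) and the 15 tested other folate cycle genes (brown). The open circle marks MTHFS, which was not called, and the dashed line is the median of all genes tested, 0.02.

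The steps on both sides of the 9 enzymes were read in the same fit. Of 8 genes of lower glycolysis, where 3-phosphoglycerate is made and used, 6 were higher, 1 lower and 1 not called (median 0.39). PGK1, which makes 3-phosphoglycerate, rose by 0.72 (SE 0.057), the enolases ENO2 and ENO3 rose by 1.79 (SE 0.084) and 1.32 (SE 0.25), and BPGM fell by 0.35 (SE 0.13), a call that was lost without hypoxia replicate 2 and without normoxia replicate 1. Of the glycine cleavage system, AMT rose by 2.63 (SE 0.23) from 0.851 ± 0.142 to 5.23 ± 0.745 CPM, GCSH fell by 0.74 (SE 0.076) and DLD fell by 0.44 (SE 0.051). GLDC, its glycine-decarboxylating subunit, had at most 14 counts in a library and was not tested. Among 6 carriers of serine, glycine and neutral amino acids, 4 were lower and 2 higher, 1 of the latter (SLC38A5, named after its values were seen) past the filter through the hypoxia libraries alone, with SLC1A5 falling by 1.24 (SE 0.070), SLC6A9, a glycine transporter, by 0.95 (SE 0.10) and SLC38A1 by 0.84 (SE 0.050).

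Pathways that draw on serine, glycine or the one-carbon unit differed among themselves. All 8 tested genes of a list on glutathione, with its synthesis, cystine import and breakdown, were lower (median -1.46), led by SLC7A11, the cystine importer, with a fall from 113 ± 6.12 to 11.4 ± 0.340 CPM (-3.31, SE 0.068). GCLM, a subunit of the rate-limiting ligase, fell by 2.37 (SE 0.11), and CHAC2, a cyclotransferase that breaks glutathione down, by 2.30 (SE 0.13). Of 13 genes of de novo purine synthesis, a main user of formyl-tetrahydrofolate, 11 were lower, 1 higher and 1 not called (median -0.75), with PRPS1 at -1.94 (SE 0.093), PPAT at -1.63 (SE 0.076) and PFAS at -1.36 (SE 0.077). The gene called higher was ADSS1, an adenylosuccinate synthase typical of muscle, with a change from 0.909 ± 0.690 to 43.8 ± 3.06 CPM (5.58, SE 0.22). It reached the filter level in every library of hypoxia alone, its 3 normoxia libraries held 32, 7 and 48 counts, and without normoxia replicate 3 its log2-fold change was 6.19. In the methionine cycle and transsulfuration, 8 of 13 were lower, 2 higher and 3 not called (median -0.25): AMD1 fell by 2.31 (SE 0.070), MAT2A, which makes S-adenosylmethionine, fell by 2.08 (SE 0.063) and MTAP fell by 1.21 (SE 0.064). CBS rose by 1.16 (SE 0.25) with a wide spread of 9.99 ± 4.40 CPM under hypoxia and was not called by limma on unfiltered FPKM, and AHCYL2 rose by 0.45 (SE 0.096). Of 13 genes listed around the use of serine and glycine, not all of which act on these amino acids, 6 were higher, 5 lower and 2 not called (median 0.26). SPTLC3 was at 1.55 (SE 0.16), SERINC2 at 0.94 (SE 0.058), PTDSS1 at -1.30 (SE 0.070) and GLYCTK at -0.95 (SE 0.18).

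The factors that are known to set the level of these enzymes, and the programmes they belong to, were described in the same way. ATF4, the factor of the amino acid response that drives PHGDH, PSAT1 and MTHFD2 in many cells, had 357 ± 14.4 CPM under hypoxia and 338 ± 5.03 CPM under normoxia (0.08, SE 0.050) and was not called (edgeR adjusted p = 0.165), though it was called higher where every library had to hold 10 counts or more (edgeR adjusted p = 0.00818) and by limma on the FPKM. Of 21 genes of the amino acid response, 6 were higher, NUPR1 among them by way of the hypoxia libraries alone, 9 lower and 6 not called (median -0.11), with DDIT4 rising by 3.74 (SE 0.13), ATF3 by 1.54 (SE 0.11) and STC2 by 1.53 (SE 0.049), and ATF5 falling by 2.02 (SE 0.10) and CEBPG by 0.88 (SE 0.075). Of 10 known regulators, 4 were higher, 4 lower and 2 not called. MYC transcripts fell by 2.88 (SE 0.10), those of HIF1A by 2.26 (SE 0.083) and those of KEAP1 by 1.25 (SE 0.056), whereas EPAS1 rose by 1.40 (SE 0.065), KMT2C by 1.32 (SE 0.077) and KDM4C by 1.16 (SE 0.064).

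All 15 hypoxia response genes were higher (median 2.71), led by EGLN3, NDRG1 and ANGPTL4, and all 16 proliferation genes were lower (median -1.23), including PLK1 at -1.95, AURKA at -1.74 and CCNB1 at -1.63. The part of the lower proliferation transcripts in the declines of PSAT1, MTHFD1, MTHFD2 and MTHFD1L was not tested. The pathway labels deposited with the counts group the genes differently. Of 18 tested genes under One carbon pool by folate, 11 were lower, 4 higher and 3 not called, and of the 12 that remain without the enzymes described here 6 were lower, 3 higher and 3 not called. Under Glycine, serine and threonine metabolism, 25 were tested, with 10 lower, 11 higher and 4 not called, and of the 20 that remain without the enzymes 7 were lower, 9 higher and 4 not called (median 0.12). Of these 9, PGAM2 and SARDH reached the filter level in every library of hypoxia alone, and 7 higher remain without them. In the folate pathway without the enzymes the same holds for FTCD, which leaves 2 higher. The 5 genes whose levels over the 6 libraries lay nearest to those of MTHFD1, by the distance of centred log2 CPM, were UCHL5, AKAP1, PRDX1, MAGOH and MTA2, with distances of 0.0477 to 0.0652. Their log2-fold changes ran from -1.19 to -1.14, beside -1.18 for MTHFD1, a likeness that the choice by distance over the same libraries fixes.

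Some of the counts may include reads of overlapping or copied genes, since whether the counting used the strand is not given in the sources used here. In GENCODE v29, exons of ZBTB25 share 178 bases with MTHFD1 on the opposite strand, and ZBTB25 rose from 8.13 to 51.7 CPM while MTHFD1 fell. SMCR8 shares 196 bases with SHMT1 and had 65.9 CPM under hypoxia and 78.6 under normoxia. SLC4A5 shares 1324 bases with MTHFD2 and had 0.578 and 0.119 CPM, and NDUFA4L2 shares 33 bases with SHMT2 and had 0.273 and 0.118 CPM. PSPH and GCSH have processed or partial copies elsewhere in the genome and CBS has a near-identical copy, so that their values are less certain.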

How the data were processed

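The authors deposited whole-number counts per gene, without normalization, and FPKM of the same genes, which equal counts per kilobase of a fixed gene length scaled by the library total. The submitters' processing notes name the mouse builds GRCm38 and mm10, whereas the tables hold human symbols and Entrez numbers. Aligner, counter, annotation and strand are not given in the sources used here. Columns were matched to samples by condition and number.

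The count test was edgeR 4.0.16 (R 4.3.3; filterByExpr, TMM, glmQLFit and glmQLFTest, condition only, Benjamini-Hochberg over 14255 genes). The SE is the size of the log2-fold change divided by the square root of F, and a prior count of 2 went into log2 CPM. FPKM were tested with limma 3.58.1 on log2(FPKM + 1) where the mean reached 1 FPKM, a scale that understates changes of low genes. Alternatives were DESeq2 size factors, the DESeq2 1.42.0 Wald test, other filters on low counts, a block for the replicate number, omission of each library, a log2-fold change beyond 1, and a pseudocount of 0.1. The tests were first run on simulated data. Replicates differed by more than sampling noise (chi-square per gene 5.11 to 11.5).

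Although no threshold on the data selects them, the enzymes and gene lists were chosen with earlier results of these data known, and some folate cycle genes are not reported here. Of each other list, up to 3 largest increases and 3 largest decreases were named, among called genes whose conditions did not overlap and whose mean log2 CPM was 1 or more. ALDH1L1 and MTHFD2L were named as relatives, and 5 genes as nearest to the enzyme with the smallest p. ATF4, TYMS, GLDC, markers with their counts and the overlapping genes were named after their values were seen.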

Additional observations from a re-analysis of the deposited data

How the results depend on the processing

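The directions of the 9 log2-fold changes were kept under every alternative that gave a value. The number of genes called was 11090 and ran from 9967 to 11920 over the other normalization, test, filters and block, and from 10669 to 11390 with a library left out; a log2-fold change beyond 1 left 4338 genes and 4 of the 9 enzymes. With at least 10 counts in every library, ALDH1L2 was not tested, and SHMT1 (-0.085, edgeR adjusted p = 0.173) and SHMT2 (-0.12, adjusted p = 0.0514) lost their calls. The median of the enzymes moved from -0.20 to -0.34 because ALDH1L2 dropped out. This setting itself shifted log2-fold changes upward, by a median of 0.077. It also moved counts of other lists: other folate cycle genes higher 1, purine synthesis higher 0, carriers higher 1 and lower glycolysis lower 0. SHMT1 was also not called by limma on FPKM, with -0.11 (adjusted p = 0.068, and 0.0738 without the filter) and -0.11 for a pseudocount of 0.1 (adjusted p = 0.0683). With a library left out, SHMT1 ran from -0.20 to -0.15 and lost its call without hypoxia replicate 3 and without normoxia replicate 1. The log2 difference of SHMT2 over SHMT1 ran from -0.075 to 0.012 and changed sign without hypoxia replicate 2. BPGM lost its call under 4 alternatives and CBS under 1, and ATF4, not called here, was called under 4 alternatives (edgeR adjusted p = 0.00818 with at least 10 counts, limma adjusted p down to 0.0126). The replicate number as a block called 10875 genes and 9 of the 9 enzymes. Deviations of same-numbered libraries correlated at 0.0175, -0.069 and 0.00122, so little variation was shared by number. Whether same-numbered libraries were paired is not known, and these correlations cannot exclude it. The causes of these changes were not tested. Depth limits ALDH1L2, whose 4 to 51 counts give an SE of 0.46.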
